A study of Mus musculus with 12 samples.

Results

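Gdf9, Bmp15, Fgf8, Oosp1, Oosp2 and Oosp3 encode factors that mouse oocytes secrete toward the follicle cells around them. The 6 genes were taken by exact gene symbol from the deposited TPM tables, where they are 6 of 55385 gene models in the table of 8 PRC2 libraries and 6 of 55401 in the table of 4 PRC1 libraries. TPM is a transcript abundance per length, scaled to the same sum in every library, so a value is a share of the transcripts measured and sequencing depth is unknown.

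The study measured bulk RNA-seq of oocytes isolated from mouse ovaries, with 2 libraries in each of 6 groups. In 4 PRC2 groups, at 2 stages, a control (EedF/+; Ddx4-Cre) stood against a conditional knockout, cKO (EedF/-; Ddx4-Cre). Non-growing oocytes were from postnatal day 6 (P6) and growing oocytes from postnatal day 7 (P7), so growth and a day of age differ together. The PRC1 groups were growing oocytes of P7, with a control labelled Ring1-/-; Rnf2F/+; Ddx4-Cre and a cKO labelled Ring1-/-; Ring1F/-; Ddx4-Cre. Every group therefore carries Ddx4-Cre, which recombines in germ cells, and both PRC1 groups lack Ring1. The PRC1 cKO label names Ring1 a second time where a floxed Rnf2 allele may have been meant, and the libraries are called by their label here. EED belongs to the core of Polycomb repressive complex 2 (PRC2), and RING1 and RNF2 are alternative ubiquitin ligases of Polycomb repressive complex 1 (PRC1). Nothing in the labels ties a library to an animal or a pool of animals, so the p-values below measure the spread between these libraries, which may be technical.

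GDF9 and BMP15 are ligands of the transforming growth factor beta family. They are made as precursors, cleaved by furin-like convertases, and act on granulosa and cumulus cells through type I and type II serine/threonine kinase receptors and SMAD proteins. Mouse follicles without Gdf9 stop at the primary stage, and loss of Bmp15 lowers ovulation and fertilization in mice. FGF8 is a fibroblast growth factor that acts with BMP15 to raise glycolysis in cumulus cells. OOSP1, OOSP2 and OOSP3 are small secreted proteins of a family related to PLAC1, made mostly by oocytes, whose roles are less well known.

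The genes lie at 4 places in GRCm38, and all 6 are protein-coding with the same coordinates in the deposited tables and in GENCODE vM21. Gdf9 (ENSMUSG00000018238) is at chr11:53431023-53437904 on the plus strand. Bmp15 (ENSMUSG00000023279) is at chrX:6314107-6320721 on the minus strand, and Fgf8 (ENSMUSG00000025219) is at chr19:45736798-45742915 on the minus strand. The Oosp genes form a row on chromosome 19. Oosp2 (ENSMUSG00000055895, chr19:11647279-11660559, minus strand) is 6900 bp from Oosp1 (ENSMUSG00000041857, chr19:11667460-11691150, minus strand), and Oosp1 is 5904 bp from Oosp3 (ENSMUSG00000055933, chr19:11697055-11711874, plus strand). A processed pseudogene, Gm19224, overlaps 793 bp of Oosp3 on the opposite strand, so Oosp3 values may hold reads of that model. The other members overlap no annotated gene.

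Promoter sequence is shown for Bmp15, Oosp1 and Oosp2, the 3 of the 6 genes that matched an entry of the RefSeq promoter table, and Oosp1 and Oosp2 are neighbours whose PRC1 values are set side by side in the results. The windows are upstream of the start in both RefSeq (GRCm38.p6) and GENCODE, written 5′ to 3′ on the minus strand of each gene. Capitals mark matches to 4 motifs that a script searched on both strands, which do not overlap each other here. They are CANNTG (the E-box, bound by basic helix-loop-helix factors such as FIGLA), TAATTG and TAATTA (homeodomain cores of the kind bound by NOBOX and LHX8) and TATAAA (the TATA box). The windows are chrX:6320725-6320974 for Bmp15, chr19:11691151-11691301 for Oosp1 and chr19:11660560-11660809 for Oosp2.
Bmp15: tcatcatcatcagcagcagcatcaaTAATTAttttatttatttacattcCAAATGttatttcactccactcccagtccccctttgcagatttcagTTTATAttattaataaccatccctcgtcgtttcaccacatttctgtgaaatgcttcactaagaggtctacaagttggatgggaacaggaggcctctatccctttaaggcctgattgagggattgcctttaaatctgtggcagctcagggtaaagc
Oosp1: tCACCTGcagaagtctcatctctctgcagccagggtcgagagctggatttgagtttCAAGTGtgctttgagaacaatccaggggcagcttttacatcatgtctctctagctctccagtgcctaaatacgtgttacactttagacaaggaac
Oosp2: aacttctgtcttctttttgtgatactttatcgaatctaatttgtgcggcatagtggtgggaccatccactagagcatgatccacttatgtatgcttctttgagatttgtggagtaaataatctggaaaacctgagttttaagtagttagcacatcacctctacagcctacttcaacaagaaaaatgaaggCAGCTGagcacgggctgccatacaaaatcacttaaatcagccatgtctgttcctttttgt

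The Bmp15 window of 250 bp held 1 E-box (CAAATG, first base at -201 from the RefSeq start), 1 TAATTA at -225 and 1 TATAAA on the other strand at -155. The Oosp1 window of 151 bp held 2 E-boxes, CACCTG at -249 and CAAGTG at -194. It is shorter because the GENCODE start lies upstream of the RefSeq start. The Oosp2 window of 250 bp held 1 E-box, CAGCTG at -60. An E-box is present in 66.2% of 250 bp windows and 47.9% of 151 bp windows over 32851 mouse promoters, whereas TAATTA is present in 4.84% and TATAAA in 12.4% of 250 bp windows. These background windows end just before the RefSeq start, whereas the Oosp1 window lies farther upstream. The 151 bp share therefore matches its length and not its position. TAATTG, present in 7.17% of 250 bp windows, was not among the letters of these windows. These matches describe the letters only.

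The libraries were checked first. Eed was at 88.8 and 90.5 TPM in PRC2 control non-growing oocytes and at 12.1 and 10.3 TPM in cKO. Growing control libraries had 62.3 and 60.4 TPM of it and growing cKO libraries had 9.64 and 10.1 TPM. Ring1 was at or under 0.02 TPM in all 4 PRC1 libraries. It was also low, from 0.1 to 0.92 TPM, in the PRC2 libraries, whose labels name no Ring1 deletion. The Ring1 values therefore check the PRC1 labels only weakly. Rnf2 had 59.2 and 53.8 TPM in PRC1 control, and the libraries labelled PRC1 cKO had 87.8 and 61.4 TPM, so the whole-gene value of Rnf2 does not check that label. The sources used here do not give which part of Rnf2 is floxed. All 9 oocyte markers (such as Ddx4, Dazl and Zp3) were at 1 TPM or more in every library, with sums of 19651 to 29847 TPM. The 14 granulosa markers summed to 3.61 to 5.1 TPM in non-growing oocytes, 9.7 to 12.9 TPM in PRC2 growing oocytes, 10.2 and 13.1 TPM in PRC1 control, and 39.7 and 27.0 TPM in PRC1 cKO.  Stroma and theca, endothelial and immune markers each summed to at most 11.4 TPM in any library.

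**Figure D1:**
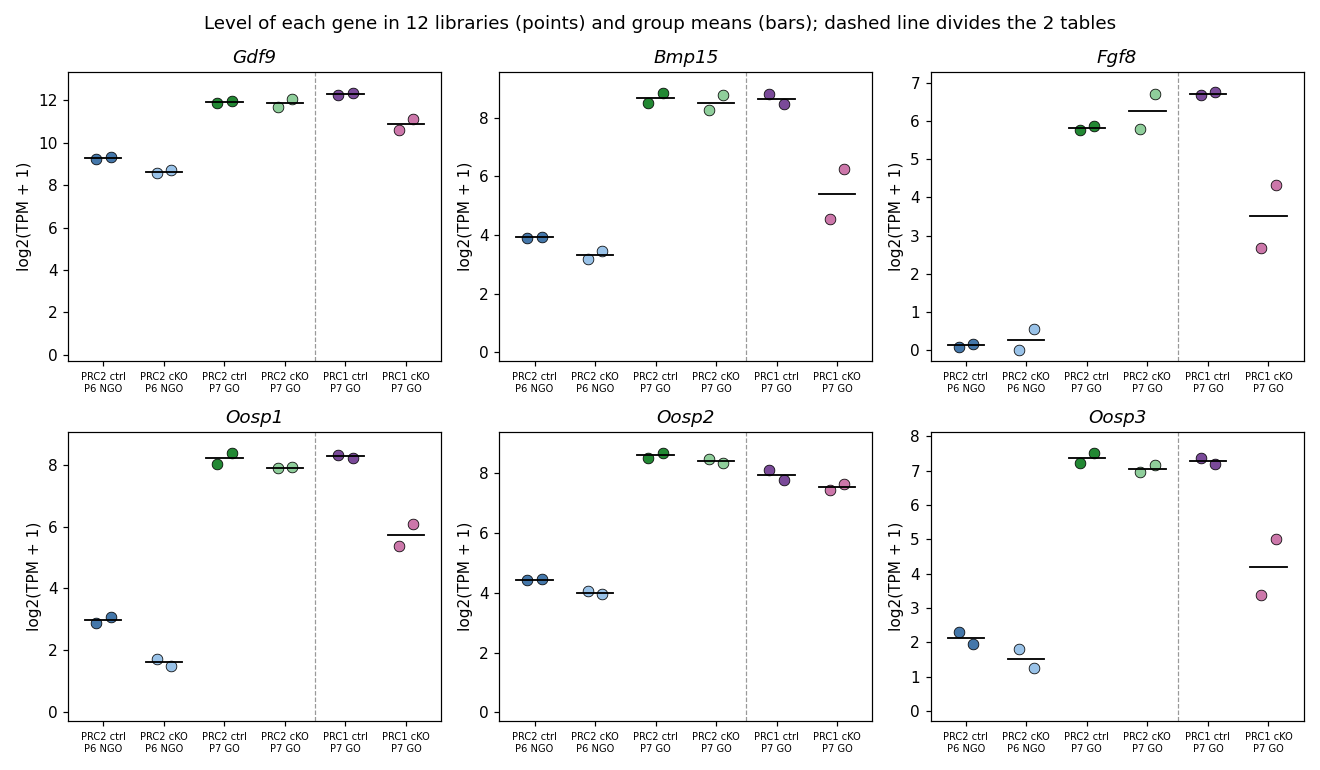
Level of each gene as log2(TPM + 1) in the 12 libraries (points, 2 per group) with the group mean (bars), and a dashed line between the separately normalized PRC2 and PRC1 tables. P6 NGO is non-growing and P7 GO is growing. All 6 genes sit far lower in the 4 non-growing libraries than in the PRC2 growing ones. All but Oosp2 sit clearly lower in the libraries labelled PRC1 cKO than in PRC1 control.

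Gdf9, Bmp15, Oosp1, Oosp2 and Oosp3 rose with oocyte growth, and Fgf8 went from near 0 to a clear level. Values were compared with limma, a linear model with variances moderated over all genes, on log2(TPM + 1), with Benjamini-Hochberg adjustment over all genes tested and a two-sided threshold of 0.05. The fit used genes that reached 1 TPM in at least 2 libraries, 14153 of the PRC2 and 14941 of the PRC1 table, and all 6 factors were among both. Fgf8 passed the filter only through its growing libraries, so it had to differ with growth, and its growth values are a description with no test. In PRC2 controls, 5 of the 5 other genes were higher in growing oocytes, where 16.6% of all tested genes were higher and 54% lower. The median log2 change of these 5 was 4.76, while that of all tested genes was -0.67. In bulk RNA, fewer cells of a type and less RNA per cell cannot be told apart.

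Gdf9 was the most abundant of the 6 at every stage. It was at 596 and 637 TPM in control non-growing oocytes and at 3706 and 4019 TPM in control growing oocytes. The growing libraries were all above the non-growing ones, and the log2 change was 2.65 (SE 0.13, adjusted p = 1.007e-05, limma). Among all gene models, Gdf9 stood at ranks 299 and 268 by TPM in the non-growing controls and at ranks 27 and 25 in the growing ones. Its log2 change was the smallest of the 6 on this scale.

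Bmp15, the partner ligand of Gdf9, started from a much lower level. It was at 13.9 and 14.3 TPM in control non-growing oocytes and at 362 and 459.8 TPM in growing ones. The libraries of the 2 stages were far apart, and the log2 change was 4.76 (SE 0.19, adjusted p = 6.437e-06, limma). Its rank went from 6023 and 6007 to 337 and 263.

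Fgf8 was close to 0 before growth, at 0.05 and 0.12 TPM in control non-growing oocytes, and was at 53.8 and 58.2 TPM in growing ones. All growing libraries were above all non-growing libraries, and the log2 change was 5.72. A gene so near 0 has its change understated by the added pseudocount of 1, and with a pseudocount of 5 the change was 3.58.

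The 3 Oosp genes rose from low levels. Oosp1 was at 6.33 and 7.37 TPM in control non-growing oocytes and at 262 and 333 TPM in growing ones, a log2 change of 5.24 (SE 0.15, adjusted p = 2.379e-06, limma). Oosp2 was at 20.5 and 20.9 TPM and then at 366 and 409 TPM, a log2 change of 4.16 (SE 0.10, adjusted p = 1.733e-06, limma). Oosp3 was at 3.93 and 2.86 TPM and then at 148 and 182 TPM, a log2 change of 5.24 (SE 0.23, adjusted p = 7.384e-06, limma). In the non-growing controls the order from high to low was Oosp2, Oosp1, Oosp3, with no overlap between their libraries. In the PRC2 growing controls Oosp2 stayed above Oosp1 and Oosp1 above Oosp3, again with no overlap. In the PRC1 growing controls the order was Oosp1 (318 and 297 TPM), Oosp2 (275 and 216 TPM) and Oosp3 (164 and 146 TPM), also with no overlap.

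In Eed cKO the same 5 genes were higher in growing than in non-growing libraries, where 20.1% of all tested genes were higher. The log2 changes in cKO were 3.24 for Gdf9, 5.19 for Bmp15, 6.30 for Oosp1, 4.40 for Oosp2 and 5.53 for Oosp3, with adjusted p from 1.016e-06 to 5.838e-06 by limma. Fgf8, at 0 and 0.45 TPM before growth and at 54.4 and 104.7 TPM in growing cKO oocytes, had a log2 change of 5.99, again with no test. Each of the 6 values was larger than the one in control, and whether these differences pass is the interaction test given with the Eed comparison below.

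TPM has a fixed sum, and with growth the share of TPM in gene models of the class TEC (loci awaiting experimental evidence) went from 2.26 to 2.57% in non-growing libraries to 23.3 to 25.9% in PRC2 growing libraries. The summed granulosa markers went from 3.69 and 4.19 TPM to 9.7 and 10.4 TPM in the controls. The part of both in the result was not tested. With trimmed-mean scaling, which moves the median change of all genes from -0.67 to -0.08, the log2 changes in control were 3.41 for Gdf9, 5.49 for Bmp15, 6.11 for Fgf8, 5.95 for Oosp1, 4.91 for Oosp2 and 5.91 for Oosp3. Over all genes, 2346 rose and 7640 fell as deposited, and 4013 rose and 4150 fell with trimmed-mean scaling.

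**Figure D2:**
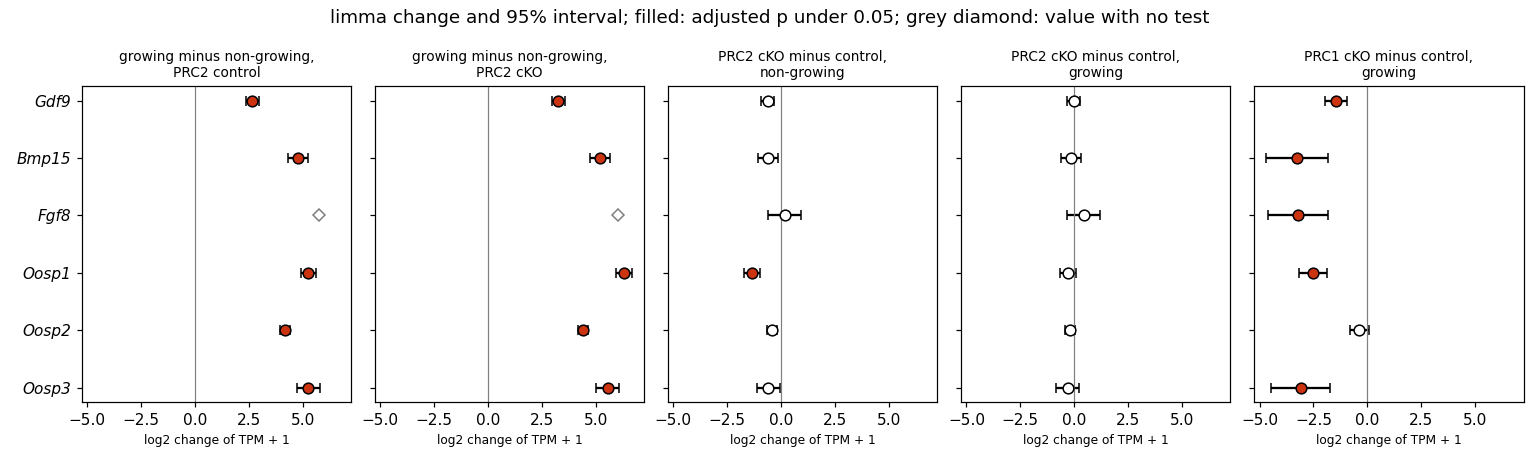
Log2 change of TPM + 1 for each gene in 5 comparisons with the 95% interval (bars), all panels on the same axis, with filled points where the limma adjusted p is under 0.05. Grey diamonds are the growth values of Fgf8, which have no test. Both growth panels have 5 filled points at positive values, the PRC2 cKO panels have 1 between them, and the PRC1 panel has 5 at negative values.

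Genes of the same pathways moved in both directions with growth. Counts of these lists include some genes that, like Fgf8, passed the filter only through 1 stage, and such genes are named with values and no test. Of 19 receptor and SMAD genes, 13 were tested, and 1 rose and 7 fell as deposited, where 54% of all tested genes fell, with a median log2 change of -0.54 beside -0.67 for all tested genes. With trimmed-mean scaling 4 rose and 1 fell, so that for most of these genes no direction can be stated. Bmpr1b, a type I receptor for BMP ligands, rose from 18.4 and 18.6 TPM to 37.7 and 48.0 TPM (log2 change 1.16, adjusted p = 0.0003421, limma), and Acvr2a, an activin type II receptor, fell by 1.07 on the log2 scale (adjusted p = 0.0008965, limma). Both kept their direction and their call with each scaling. Of 16 other ligands of the family, 6 were tested, 3 rose and 1 fell, where 16.6% of all tested genes rose and 54% fell. Tgfb2, a TGF-beta isoform, went from 18.7 and 19.6 TPM to 287 and 295 TPM (log2 change 3.86, adjusted p = 1.772e-06, limma), and Bmp5 from 0.24 and 0.29 TPM to 14.7 and 22.4 TPM (log2 change 3.92). Bmp5 passed the filter only through growing libraries.

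Of the genes of precursor processing, 5 of 7 were tested, and 0 rose and 2 fell as deposited, beside the 54% of all tested genes that fell. The convertase Pcsk6 had a log2 change of -1.30 and its relative Pcsk5 of -0.80, both being under 1 TPM in the growing controls. Of 9 extracellular antagonists 3 were tested, and Htra1, a secreted serine protease, fell by 1.91 on the log2 scale (adjusted p = 1.67e-05, limma). On the FGF side, 3 of 11 ligands and receptors were tested, and Fgf9 fell by 1.36 (adjusted p = 0.0003118, limma) while Fgfr2, under 1 TPM in the non-growing libraries, had a log2 change of 1.16. Of 9 feedback targets of FGF signaling 3 were tested, and Spry4, an inhibitor of receptor tyrosine kinase signaling, went from 0.06 and 0.09 TPM to 14.9 and 16.3 TPM (log2 change 3.94). Spry1 of the same family rose by 1.41 (adjusted p = 0.006215, limma).

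The 10 oocyte transcription regulators on the list, which include factors that are known to act upstream of oocyte genes, were all tested. As deposited, 2 rose and 8 fell with growth, where 16.6% of all tested genes rose and 54% fell. Figla, a basic helix-loop-helix factor, went from 966 and 992 TPM to 362 and 302 TPM (log2 change -1.56, adjusted p = 2.498e-05, limma). Sohlh2, of the same class, went from 117 and 130.2 TPM to 17.7 and 15.1 TPM (log2 change -2.84, adjusted p = 2.703e-05, limma). With trimmed-mean scaling 3 rose and 3 fell, and Figla and Sohlh2 were among those that fell. Tbpl2, a TBP-related factor of oocytes, changed direction with that scaling.

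Loss of Eed in non-growing oocytes, the comparison that the design text names for PRC2, gave lower values for 5 of the 6 genes, of which 1 passed. Oosp1 was lower in cKO, where 0.198% of all tested genes were lower, and the median log2 change was -0.60 over the 6 genes and -0.09 over all tested genes. At an unadjusted limma p under 0.05, 5 of the 6 were lower, as were 10.5% of all tested genes.

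Oosp1 was at 6.33 and 7.37 TPM in control and at 2.29 and 1.83 TPM in cKO, with both cKO libraries below both controls. The log2 change was -1.36 (SE 0.15, 95% interval -1.72 to -0.996, adjusted p = 0.02939, limma). The call rests on a narrow margin. Over 19 alternatives the adjusted p ran from 0.02314 to 0.2891 and the call was lost in 11 of them, although the log2 change stayed negative, from -1.52 to -0.75.

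The other 4 genes with lower cKO values did not pass. Gdf9 was at 596 and 637 TPM in control and at 377 and 420.2 TPM in cKO, without overlap (log2 change -0.63, SE 0.13, adjusted p = 0.1129, limma). Bmp15 was at 13.9 and 14.3 TPM in control and at 8.07 and 9.98 TPM in cKO, also without overlap (log2 change -0.60, SE 0.19, adjusted p = 0.2389, limma). Oosp2 was at 20.5 and 20.9 TPM against 15.6 and 14.7 TPM (log2 change -0.43, SE 0.10, adjusted p = 0.1476, limma). These 3 genes had every cKO library below every control library.

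Oosp3 was at 3.93 and 2.86 TPM in control and at 2.49 and 1.38 TPM in cKO (log2 change -0.60, SE 0.23, adjusted p = 0.279, limma). Its libraries did not overlap either, but the gap between groups was smaller than the spread within them. Fgf8 was at 0.05 and 0.12 TPM in control and at 0 and 0.45 TPM in cKO, near 0 in all 4 libraries, so no fold is given. The granulosa markers summed to 3.69 and 4.19 TPM in these controls and to 5.1 and 3.61 TPM in cKO, so the groups overlapped. The 9 oocyte markers summed to 29847 and 28986 TPM in control and to 26350 and 27531 TPM in cKO, without overlap, and their median log2 change was -0.43. Of these markers 0 passed by limma, and 4 were lower at an unadjusted p under 0.05. Nlrp5, a maternal-effect gene of oocytes, went from 2803 and 2759 TPM to 879 and 846 TPM (log2 change -1.69, adjusted p = 0.05497, limma), and Zp3, a zona pellucida protein, from 2256 and 2316 TPM to 1356 and 1351 TPM (log2 change -0.76, adjusted p = 0.05854, limma). Both passed with quantile normalization. Their part in the result was not tested.

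In growing Eed cKO oocytes the mean levels of Gdf9 and Bmp15 were near those of control. Gdf9 was at 3706 and 4019 TPM in control and at 3329 and 4284 TPM in cKO, and Bmp15 was at 362 and 459.8 TPM against 308 and 430.2 TPM. The cKO libraries lay on both sides of the controls for Gdf9. The log2 changes were -0.03 for Gdf9 (95% interval -0.34 to 0.27) and -0.17 for Bmp15 (95% interval -0.63 to 0.30).

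Fgf8 was at 53.8 and 58.2 TPM in control and at 54.4 and 104.7 TPM in growing cKO, with the second cKO library far above the rest (log2 change 0.43, 95% interval -0.34 to 1.19). Oosp1 was at 262 and 333 TPM against 237 and 241 TPM, and Oosp3 was at 148 and 182 TPM against 124 and 141 TPM. For both, every cKO library was below every control library, and the log2 change was -0.31. The 95% interval was -0.67 to 0.06 for Oosp1 and -0.85 to 0.23 for Oosp3. Oosp2 was at 366 and 409 TPM against 358 and 322 TPM (log2 change -0.19, 95% interval -0.43 to 0.05). Its cKO libraries were also both below both controls.

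In growing oocytes 0 of 6 genes passed by limma, with adjusted p from 0.5662 to 0.9455, and 0 had an unadjusted p under 0.05. Of all tested genes 0.17% passed in either direction, and 9.94% had an unadjusted p under 0.05. The oocyte markers summed to 27409 and 27833 TPM in these controls and to 23372 and 23428 TPM in cKO, without overlap, and their part was not tested. A p that misses the threshold does not show that the levels were equal, and the intervals above give the range of changes that the libraries allow.

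The difference of the Eed effects between stages (growing minus non-growing) was positive for all 6 genes, and 0 passed, where 0.0989% of all tested genes passed. It was 1.05 for Oosp1 (SE 0.22, unadjusted p = 0.001978, adjusted p = 0.2699, limma) and 0.60 for Gdf9 (SE 0.18, unadjusted p = 0.01361, adjusted p = 0.3055, limma), the 2 genes of the 6 with an unadjusted p under 0.05, where 15.8% of all tested genes had one. The median change of all genes was 0.16 in the same direction. Without the first growing cKO library, the value of Gdf9 was 0.78, in a fit that leaves 1 library in that group.

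Other genes around these pathways gave no call in either Eed comparison. Of 48 context genes tested, 0 passed by limma in non-growing oocytes, where 16 of all 14153 tested genes passed as higher and 28 as lower. At an unadjusted p under 0.05, 3 of the 48 were higher and 5 lower, beside 5.85% and 10.5% of all tested genes. In growing oocytes 0 of the 48 passed, beside 0.17% of all tested genes in either direction. There 5 were higher and 0 lower at that unadjusted threshold, beside 6.73% and 3.21% of all tested genes.

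Within a library the secreted factors kept different proportions. Gdf9 to Bmp15 was 42.8 and 44.4 in control and 46.7 and 42.1 in cKO non-growing libraries, and it was 10.2 and 8.74 in control and 10.8 and 9.96 in cKO growing libraries. At both stages the cKO and control libraries overlapped, and the growing libraries were all below the non-growing ones. Oosp2 to Oosp1 was 3.24 and 2.83 in non-growing controls and 6.79 and 8.02 in non-growing cKO, and it was between 1.23 and 1.51 in the 4 growing PRC2 libraries. This second ratio was chosen after the values were seen. Its non-growing cKO values were above those of the other 6 PRC2 libraries.

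**Figure D3:**
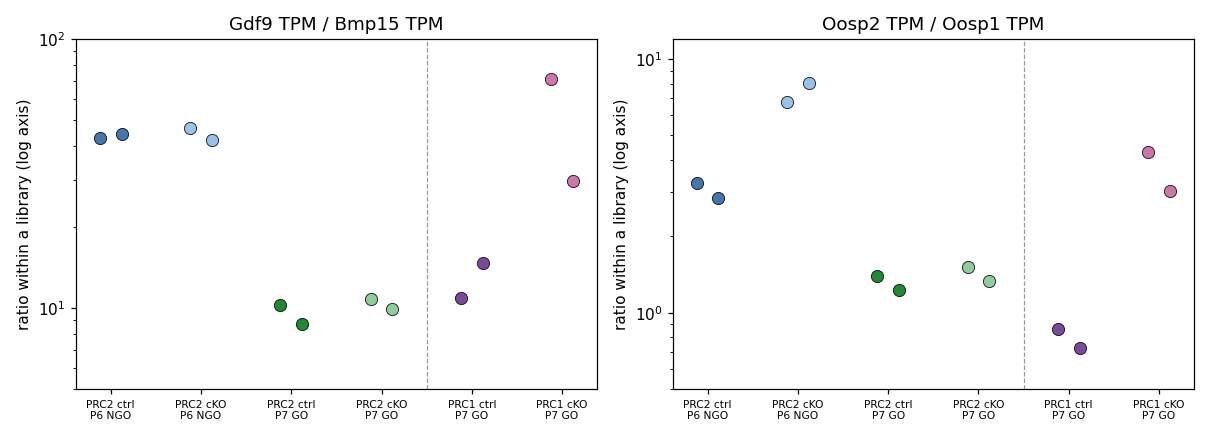
Ratio of Gdf9 to Bmp15 TPM (left) and of Oosp2 to Oosp1 TPM (right) within each of the 12 libraries, on log axes, with a dashed line between the PRC2 and PRC1 tables. Gdf9 to Bmp15 lies between 42.1 and 46.7 in the non-growing libraries and is at most 14.7 in the PRC2 growing and PRC1 control libraries, and both ratios are higher in the libraries labelled PRC1 cKO than in PRC1 control.

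The PRC1 comparison is the other one that the design text names. Of the 6 genes, 5 fell in the libraries labelled PRC1 cKO, where 6.45% of all tested genes fell and 41.3% rose. The median log2 change was -2.81 over the 6 genes and 0.55 over all tested genes. Bmp15, Fgf8, Oosp3 and Oosp1 lay at percentiles 0.05, 0.07, 0.13 and 0.25 of the changes of all tested genes, Gdf9 at 1.72 and Oosp2 at 12.5.

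Gdf9 was at 4864 and 5225 TPM in PRC1 control and at 1572 and 2205 TPM in PRC1 cKO, with no overlap. The log2 change was -1.44 (SE 0.20, adjusted p = 0.005519, limma), the smallest of the 5 falls. Its rank among gene models was 25 in both controls and 58 and 37 in cKO, so it was still among the most abundant transcripts.

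Bmp15 was at 447.5 and 354 TPM in control and at 22.1 and 74.2 TPM in cKO. Both cKO libraries were far below both controls, and the first was the lower one. The log2 change was -3.26 (SE 0.56, adjusted p = 0.009233, limma), and the rank went from 250 and 346 to 5639 and 2296.

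Fgf8, which acts together with BMP15 on cumulus cells, was at 103 and 107 TPM in control and at 5.42 and 19.2 TPM in cKO. The groups did not overlap, and the first cKO library was again the lower. The log2 change was -3.22 (SE 0.54, adjusted p = 0.008661, limma).

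Of the Oosp genes, Oosp1 and Oosp3 fell and Oosp2 did not pass. Oosp1 was at 318 and 297 TPM in control and at 40.7 and 66.6 TPM in cKO (log2 change -2.54, SE 0.25, adjusted p = 0.002908, limma), and Oosp3 was at 164 and 146 TPM against 9.44 and 31.5 TPM (log2 change -3.08, SE 0.53, adjusted p = 0.009524, limma). Oosp2, next to Oosp1 in the row, was at 275 and 216 TPM in control and at 174 and 200.3 TPM in cKO (log2 change -0.38, SE 0.17, 95% interval -0.82 to 0.06, adjusted p = 0.1241, limma). Its cKO libraries were below both controls, by less than the spread between the controls.

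The call for Oosp2 turned on the scaling. It was lower by -0.96 (adjusted p = 0.02362, limma) with trimmed-mean scaling and by -0.69 (adjusted p = 0.04227, limma) with quantile normalization. With trimmed-mean scaling the other log2 changes were -2.01 for Gdf9, -3.83 for Bmp15, -3.76 for Fgf8, -3.11 for Oosp1 and -3.63 for Oosp3. Over all genes 6176 rose and 964 fell as deposited, and 3636 rose and 2730 fell with trimmed-mean scaling. The ratio of Oosp2 to Oosp1 within a library was 0.865 and 0.727 in control and 4.28 and 3.01 in cKO. The log2 difference was 2.18. An exact permutation test, two-sided, of 2 libraries against 2 gave p = 0.333, the smallest it can give, so it cannot decide. This ratio was chosen after its values were seen.

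Leaving out 1 cKO library moved the sizes. Without the first cKO library, Bmp15 was lower by -2.41, Fgf8 by -2.39 and Oosp3 by -2.26. Without the second, the values were -4.11, -4.05 and -3.90. Gdf9 ran from -1.19 to -1.68 and Oosp1 from -2.19 to -2.89 over the same pair of fits, and the same 5 genes passed by limma in each.

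The summed level of the 6 genes was 6171 and 6345 TPM in PRC1 control and 1824 and 2597 TPM in cKO, or 0.617 and 0.635% of all TPM against 0.182 and 0.260%. Gdf9 made up 78.8 and 82.3% of the sum in control. Within a library, the ratio of Gdf9 to Bmp15 was 10.9 and 14.7 in control and 71.2 and 29.7 in cKO. The spread between the cKO libraries was wide, but both lay above the controls.

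Other features moved with the PRC1 comparison. The granulosa markers summed to 39.7 and 27.0 TPM in cKO against 10.2 and 13.1 TPM in control. Of the 5 that were tested 4 passed as higher (Cyp19a1, Gata4, Inha and Kitl), beside 41.3% of all tested genes. Cyp19a1 and Gata4 passed the filter only through the cKO libraries. Foxl2, a defining transcription factor of granulosa cells, was at 0.19 and 0.14 TPM in cKO and at 0 in both controls. Amh was at 0.24 and 0.04 TPM in cKO. The oocyte markers summed to 21343 and 22035 TPM in control and to 19651 and 20665 TPM in cKO. By limma as deposited, 2 rose (Dazl and Ddx4) and 3 fell (Nlrp5, Ooep and Zp3), beside 41.3% and 6.45% of all tested genes. The number of gene models with at least 1 TPM was 12313 and 12592 in control and 15582 and 14940 in cKO, and the TEC share was 22.5 and 20.9% against 11.05 and 14.9%. Their part in the result was not tested.

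Oocyte transcription regulators were mostly higher in PRC1 cKO as deposited. Of 10 tested, 6 rose and 2 fell, beside 41.3% and 6.45% of all tested genes, with a median log2 change of 0.77 beside 0.55 for all tested genes. Sohlh1, a basic helix-loop-helix factor of early oocytes, went from 90.0 and 157 TPM to 986 and 598 TPM (log2 change 2.68, SE 0.36, adjusted p = 0.005046, limma). Nr6a1, an orphan nuclear receptor, fell from 43.0 and 33.7 TPM to 9.94 and 13.7 TPM (log2 change -1.62, SE 0.24, adjusted p = 0.006087, limma). With trimmed-mean scaling 3 rose and 2 fell, with Sohlh1 still among the rises and Nr6a1 among the falls.

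**Figure D4:**
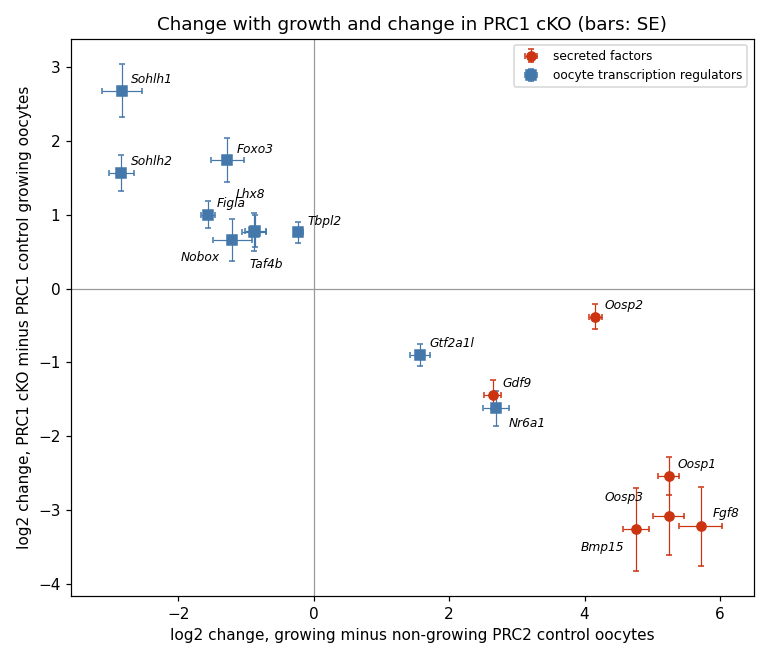
Log2 change with growth in PRC2 controls (x axis) against log2 change in PRC1 cKO (y axis) for the 6 secreted factors (circles) and the 10 oocyte transcription regulators (squares), with SE bars. The secreted factors lie at positive x and negative y (the x value of Fgf8 has no test), and 8 regulators lie at negative x and positive y as deposited, of which Tbpl2 turns to positive x with trimmed-mean, quantile and protein-coding scaling and Taf4b to just under 0 on y with quantile normalization.

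Of 19 receptor and SMAD genes 15 were tested, 7 rose and 0 fell by limma as deposited, where 41.3% of all tested genes rose, but with trimmed-mean scaling 1 rose and 1 fell. Smad7, an inhibitory SMAD, went from 0.11 and 0.34 TPM to 3.13 and 2.38 TPM (log2 change 1.62). Tgfbr1, the type I receptor for GDF9, went from 9.6 and 9.54 TPM to 23.7 and 18.1 TPM (log2 change 1.04, adjusted p = 0.01517, limma), a call that was lost with trimmed-mean scaling. Of 16 other family ligands 7 were tested, 3 rose and 1 fell, and Bmp7 had a log2 change of 2.85 and Inhba, the inhibin beta-A subunit, of 1.73.

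Of the processing enzymes 6 of 7 were tested and 3 rose, where 41.3% of all tested genes rose. The same share stands beside the other counts of rises in this paragraph. Fam20c, a kinase of secreted proteins, was at 0 in both controls and at 3.73 and 2.34 TPM in cKO. Pcsk6 went from 0.49 and 0.67 TPM to 7.25 and 4.14 TPM (log2 change 2.05). Smad7, Bmp7, Inhba, Fam20c and Pcsk6 are counted above but passed the filter only through the cKO libraries, so no test of them is given. Of 9 antagonists 4 were tested and 3 rose, and Htra1 went from 26.4 and 37.2 TPM to 146 and 111 TPM (log2 change 1.99, adjusted p = 0.00402, limma). On the FGF side, 0 of 3 tested ligands and receptors passed by limma, and 0 had an unadjusted p under 0.05, with Fgfr1 at a log2 change of 0.28. Of 6 tested feedback targets 2 rose, Etv5 by 1.07 (adjusted p = 0.02382, limma) and Spry2, which passed the filter only through the cKO libraries, by 1.29, both calls being lost with quantile normalization.

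Among 10 genes that these factors are known to regulate in cumulus cells, 5 were tested in the PRC1 oocyte libraries and 3 rose. Of all tested genes 41.3% rose in this comparison. Ldha, lactate dehydrogenase A, went from 1.05 and 1.71 TPM to 128 and 76.2 TPM (log2 change 5.40, SE 0.32, adjusted p = 0.002076, limma). Sqle, an enzyme of cholesterol synthesis, had a log2 change of 1.18 (adjusted p = 0.0137, limma). Both passed with every scaling.

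The neighbouring genes followed no single direction. The 2 nearest protein-coding genes on each side gave 16 neighbours outside the set, of which 10 were tested. With growth in controls 5 rose and 4 fell, where 16.6% and 54% of all tested genes did. The 5 include Shroom4 (0.39 and 0.33 to 1.4 and 1.3 TPM) and Dgkk (0.4 and 0.53 to 2.04 and 2.68 TPM). Both passed the filter only through growing libraries, so no growth test of them is given. In PRC1 cKO 4 rose and 2 fell, where 41.3% and 6.45% of all tested genes did. In the Eed comparisons 0 passed by limma. Of all tested genes, 16 passed as higher and 28 as lower in non-growing oocytes, and 0.17% passed in growing ones. An unadjusted p under 0.05 was found for 0 neighbours in non-growing oocytes and 1, lower, in growing ones. Of all tested genes 16.4% and 9.94% had one. Uqcrq, a subunit of respiratory complex III, starts 191 bp from Gdf9 on the opposite strand. It fell with growth, from 1126 and 1043 TPM to 488 and 433 TPM (log2 change -1.24, adjusted p = 8.863e-05, limma). In the PRC1 table its controls had 350 and 367 TPM and its cKO libraries 621 and 691 TPM (log2 change 0.87, adjusted p = 0.006087, limma), a call lost with trimmed-mean scaling, where the log2 change was 0.29.

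Near Bmp15, AU022751 fell in PRC1 cKO, from 351 and 407 TPM to 105 and 101 TPM (log2 change -1.86, adjusted p = 0.002191, limma). It lies 230687 bp from Bmp15, whereas Nudt10, which lies nearer at 141091 bp, had a log2 change of 1.45 (adjusted p = 0.005351, limma), a call lost with quantile normalization. Near Fgf8, Fbxw4 fell from 21.8 and 20.7 TPM to 5.68 and 9.07 TPM (log2 change -1.44, adjusted p = 0.01101, limma). With growth in controls AU022751 and Fbxw4 rose, with log2 changes of 2.43 and 2.90 (adjusted p = 0.001152 and 0.0002893, limma).

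Of the genes that flank the Oosp row, Ms4a3, Ms4a2 and Gif (Cblif in the deposited tables) were at or under 0.79 TPM in all libraries and were not tested. Mrpl16, a mitochondrial ribosomal protein gene 58516 bp from Oosp3, was tested. It fell with growth, from 34.9 and 32.9 TPM to 15.4 and 15.2 TPM in the controls (log2 change -1.10, adjusted p = 0.0004921, limma). In PRC1 cKO it rose from 17.8 and 20.3 TPM to 50.1 and 42.4 TPM (log2 change 1.24, adjusted p = 0.005949, limma). Both calls held with each scaling, and both directions are opposite to those of Oosp1 and Oosp3.

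For each secreted factor the 3 genes with the most similar pattern were taken over the 8 PRC2 libraries, by Pearson r of log2(TPM + 1) among 7645 protein-coding genes with a mean of at least 5 TPM. The r was at least 0.9981 for all 17 distinct genes. It is a description, since the libraries fall into the 2 stages, which set most of the r. Zfp709 was closest to Gdf9, Rapgef5 to Bmp15, Rhoh to Fgf8, Ccdc69 to Oosp1, Intu to Oosp2 and Gpr1 to Oosp3. All 17 had a positive log2 change with growth in controls, from 0.99 to 6.46. In the PRC1 table as deposited, which was not used to choose them, 11 of the 17 fell by limma. Of the rest 0 rose and 6 did not pass, and 6.45% of all tested genes fell. How often other genes that rise with growth fell in the PRC1 table was not tested. Rapgef5 had a log2 change of -2.22 (adjusted p = 0.004726, limma), Ccdc69 of -2.24 (adjusted p = 0.005589, limma) and Intu of -0.57 (adjusted p = 0.07898, limma).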

How the data were processed

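RNA-seq was made from oocytes of mouse ovaries, in 12 libraries with 2 per group. Per the labels' protocols, the RNeasy Plus Micro kit gave the RNA and the NEBNext Single Cell/Low Input kit the libraries. The authors deposited TPM values in a PRC2 and a PRC1 table, which were treated as normalized separately. Per the submitters' processing notes, the tools were RSEM 1.3.3, Subread 2.0.3, HISAT2, SAMtools and Trim Galore 0.6.10, and the build was GRCm38 (mm10). The sources used here do not give which tool made the TPM values or whether strand was used. TPM keeps no depth, so no count test or counting interval was possible.

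Genes with at least 1 TPM in at least 2 libraries were fitted per table on log2(TPM + 1) with limma 3.58.1 in R 4.3.3 (eBayes with a trend, no covariate), with Benjamini-Hochberg adjustment over all genes tested. The groups of a table shared 1 estimate of the spread. The 6 members and all lists were chosen with earlier results of these data known. Named genes were the 6 members, Eed, Rnf2 and Ring1, at most 2 tested genes of each of 8 context lists per comparison (smallest p), the 3 genes most like each member, and the 2 nearest protein-coding genes on each side. Marker genes served as a check of cell types, and other context or marker genes named beside a count of at most 5 were named after their values were seen. Promoters came from RefSeq, where 3 of the 6 symbols matched. The fit was first tested on simulated data, where it recovered only part of the changes put in. In the PRC1 design it recovered none of them when few genes were changed, and most of them when many genes were changed. A gene without a call may therefore still have changed. Alternatives were the pseudocount, the filter, 3 scalings, the variance model, a replicate block, a fit of only the groups compared and each library left out.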

Additional observations from a re-analysis of the deposited data

How the results depend on the processing

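With 2 libraries a group, a library left out leaves a lone one that is assumed to vary like the other groups, and intervals are wide. With no single library left out, the 5 genes other than Fgf8 stayed called with growth in control and in Eed cKO in each alternative. Fgf8 has no test with growth. In PRC1 cKO, Gdf9, Bmp15, Fgf8, Oosp1 and Oosp3 stayed called in each of these alternatives. Oosp2 was added there under quantile normalization and trimmed-mean scaling. TPM has no depth, so small differences in Fgf8 and Oosp3 before growth were not resolvable.

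In non-growing Eed cKO the count of lower members was 1, and it was 0 with a pseudocount of 5, quantile normalization, trimmed-mean scaling and a fit restricted to these 2 groups. It ran from 0 to 1 with 1 library left out, being lost without either non-growing control, either non-growing cKO or either growing cKO library. For the stage difference of the Eed effect, the count of higher members was 0 and ran from 0 to 1 with 1 library left out. Directions that turned were all of values that did not pass. The stage difference of Oosp3 was -0.023 with a pseudocount of 5. With 1 library left out, Fgf8 in non-growing cKO ran from -0.12 to 0.42, and in growing cKO Gdf9 ran from -0.21 to 0.15, Bmp15 from -0.41 to 0.076 and Fgf8 from -0.041 to 0.89, with a stage difference of Fgf8 from -0.19 to 0.74. The cause was not tested.

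Calls over all genes moved by more than 1.5 times in every comparison. With no single library left out, calls higher and lower in non-growing Eed cKO ran from 5 to 47 and from 15 to 44. In growing Eed cKO they ran from 7 to 31 and from 3 to 19, where the 3 came from the fit of only the groups compared. With growth in control they ran from 1624 to 4013 and from 4150 to 8105, with growth in Eed cKO from 1941 to 4342 and from 4263 to 6875, and in PRC1 cKO from 2722 to 6183 and from 547 to 2730. Leaving out the first growing Eed cKO library gave 855 higher calls for the stage difference in place of 13.

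The replicate numbers pair nothing in the labels. Correlations of the deviations of same-numbered libraries ran from -0.03 to 0.26 in the PRC2 table and were -0.268 in the PRC1 table. With the replicate block, the count of lower members in non-growing Eed cKO was 0 (Oosp1 at adjusted p = 0.06311, limma), and over all genes it was 15 lower calls in place of 28. In PRC1 cKO the block left 5 members lower, with 4494 higher and 600 lower calls over all genes.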
